A study of Arabidopsis thaliana with 6 samples.

Results

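The probe sets described here are those of the auxin signalling genes named IAA with a number, the Aux/IAA repressors. They were chosen by symbol: every probe set with 1 gene in the platform annotation whose symbol begins with IAA, ARF or SAUR followed by a number. Of 22746 probe sets without Affymetrix controls, 7 met this rule, 1 for each of 7 genes: IAA18, IAA20, IAA29, IAA30, IAA31, IAA33 and IAA34. The annotation used here gave 0 ARF and 0 SAUR probe sets under the rule, so neither family is described. It left 8730 of the 22746 probe sets without a gene name, so an absent symbol does not show that the array lacks the gene. By symbol, 24 genes of the RefSeq annotation are named IAA with a number, and the other members of that family were not analysed here.

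Col-0 plants of Arabidopsis thaliana were grown in sterile jars on sugar-containing medium, and their leaves were sprayed at an age of 28 days with Tween 20 or with distilled water. Tween 20 is a non-ionic detergent and was used at 1.6 mM. The groups were Tween 20 at 2.5 h (1 array, experiment II) and at 1 h (2 arrays, experiments IA and IB), against water at 2.5 h (1 array, II) and at 1 h (2 arrays, IA and IB). RNA of 3 extracts was pooled for each array, and each experiment gave 1 Tween and 1 water array. The groups follow the sample titles, because the treatment notes of the Tween samples name water and those of IA name the later time.

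Aux/IAA proteins are nuclear repressors that bind auxin response factors, the ARF proteins, and recruit co-repressors to their target genes. Auxin joins an Aux/IAA to a receptor of the TIR1/AFB family through a short degron in the repressor, and the repressor is then degraded. Many Aux/IAA genes are themselves switched on early by auxin, so that their transcripts are commonly read as a sign of auxin response. IAA18 and IAA29 carry the degron. IAA20, IAA30, IAA33 and IAA34 lack it, and that of IAA31 is diverged, which makes proteins of this kind longer-lived.

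IAA18 was the 1 member of 7 with a clear signal in these leaves, and its difference between Tween 20 and water did not pass the test. IAA29 had higher signals under Tween 20 in all 3 pairs, at levels too low to enter that test. The other 5 members were also dim on every array, and none of them kept 1 direction over the 3 pairs. Among the 7853 probe sets dim on all 6 arrays, 11.9% were higher under Tween 20 in all 3 pairs. The share lower in all 3 was not counted, so the changing direction is not read as a trait of these members. A signal was called dim when it lay below the 40th percentile of its own array, 20.6 to 23.9 arbitrary MAS5 units, and a probe set was tested if it reached that percentile on at least 2 of the 6 arrays. This filter left 14345 probe sets. The 6 dim members lay between 0.8 and 20.2 units and below that percentile on all 6 arrays, as did 40.3% of the 13513 probe sets with 1 gene. Whether a dim probe set reports a few transcripts or none cannot be told from these signals, and in whole leaves fewer cells of a type and less RNA per cell cannot be told apart.

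**Figure D1:**
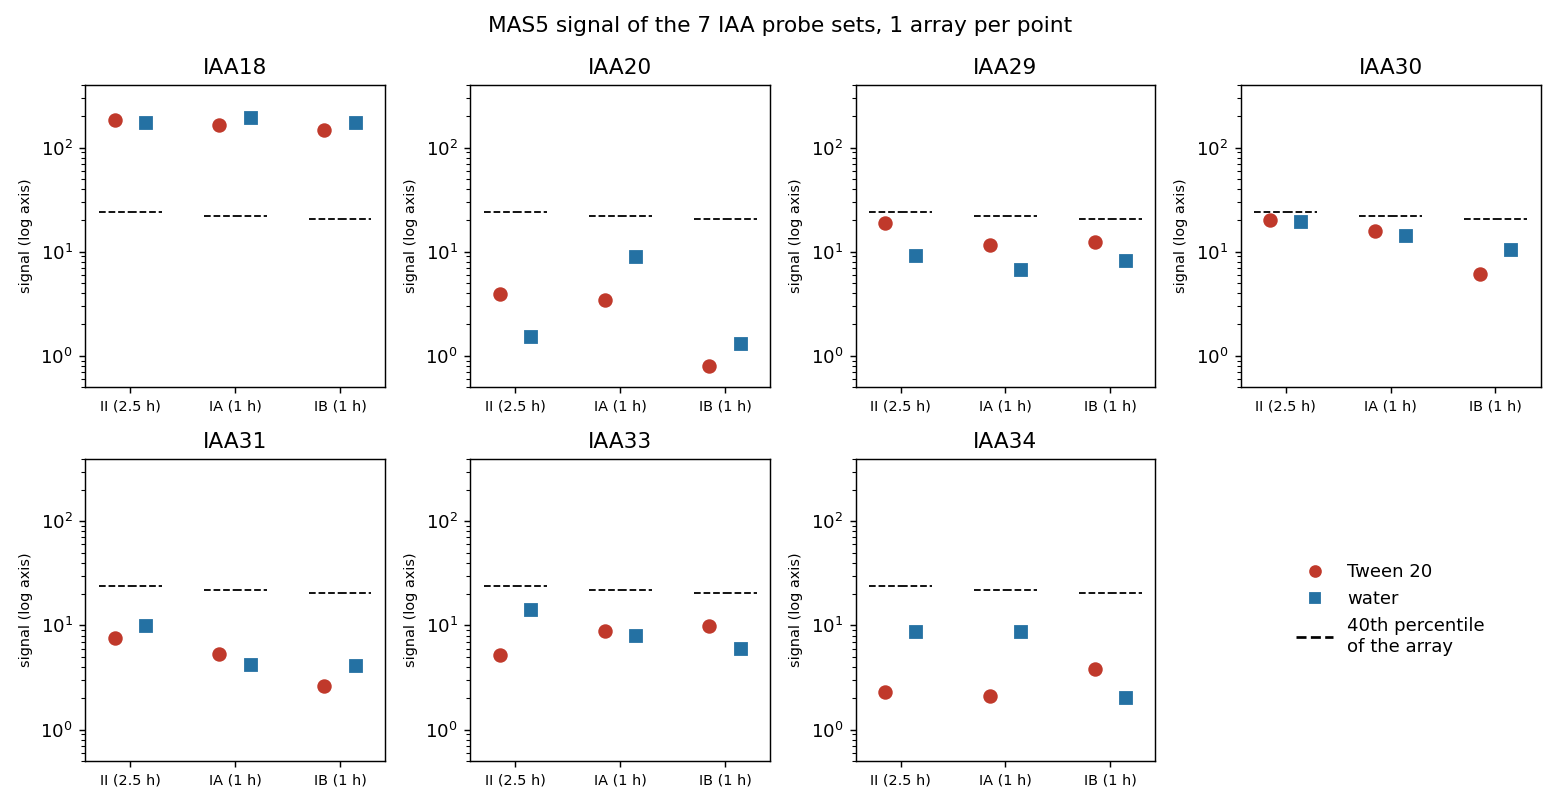
MAS5 signal (log axis, arbitrary units) of the 7 IAA probe sets on each array, Tween 20 as circles and water as squares, by experiment. Dashed lines mark the 40th percentile of each array. IAA18 lies between 148 and 190.6 units on all 6 arrays, and the other 6 members lie under the dashed lines on all 6.

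The plot of signals by array shows the gap between IAA18 and that percentile. IAA18 is a repressor with roles in embryo patterning and lateral root formation. Its signal in II was 182.8 units under Tween 20 and 173.7 units under water. In IA it was 165.6 units under Tween 20 and 190.6 units under water, and in IB 148 units under Tween 20 and 171.1 units under water. The Tween arrays overlapped the water arrays, and at 1 h the Tween array was the lower of its pair in both repetitions.

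Over the 3 experiments IAA18 averaged 165.5 ± 17.4 units under Tween 20 and 178.5 ± 10.6 units under water (SD, n = 3 each). At 1 h the means were 156.8 ± 12.4 units under Tween 20 and 180.8 ± 13.8 units under water (SD, n = 2 each). The log2 folds of Tween over water were 0.07 in II, -0.20 in IA and -0.21 in IB. In limma's moderated test with the experiment as a block, the estimate over the 3 experiments was -0.11 ± 0.12 (SE, n = 3 pairs, adjusted p = 0.703). Its 95% interval ran from -0.39 to 0.17 on the log2 scale, inside the bounds of a 2-fold difference in either direction. Of all tested probe sets 1.12% passed this test, and 0 members did.

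At 1 h alone the estimate for IAA18 was -0.21 ± 0.15 (SE, n = 2 pairs, limma adjusted p = 0.636), with an interval from -0.58 to 0.17. The folds of IA and IB differed by an SD of 0.0045, less than the SE, which also draws on the spread of all other probe sets. In that test 0 of the 14345 probe sets passed, a share of 0%, and 1691 had an unadjusted p under 0.05. The Tween effect at 2.5 h differed from that at 1 h by 0.28 ± 0.26 (SE, limma adjusted p = 0.998), with an interval from -0.36 to 0.92. Again 0 probe sets passed, a share of 0%, with 356 at an unadjusted p under 0.05. The 2.5 h time is held by experiment II alone, so time and experiment cannot be told apart.

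IAA29 is a repressor gene known to be switched on in shade by the PIF transcription factors. Its signal in II was 18.8 units under Tween 20 and 9 units under water. In IA it was 11.5 units under Tween 20 and 6.7 units under water, and in IB 12.4 units under Tween 20 and 8.2 units under water. Every Tween signal lay above every water signal, with means of 14.2 ± 4.0 units under Tween 20 and 7.97 ± 1.17 units under water (SD, n = 3 each). IAA29 was the 1 of 7 members whose groups did not overlap in this way, against 4.31% of all probe sets and 3.77% of the 7853 that were dim on all 6 arrays. Its highest Tween signal, in II, reached 78.7% of the 40th percentile of that array.

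The log2 folds of IAA29 were 1.06 in II, 0.78 in IA and 0.60 in IB. It was the 1 member of 7 above water in all 3 pairs, where 14.1% of all probe sets and 11.9% of the dim ones were too. Fitted without the filter on dim signals, its estimate was 0.81 ± 0.27 (SE, n = 3 pairs, limma unadjusted p = 0.027, adjusted p = 0.395), a 1.76-fold difference with a 95% log2 interval from 0.14 to 1.49. That estimate did not pass, and 0% of the 22746 probe sets passed in the unfiltered fit, while 11.3% had an unadjusted p under 0.05. The size of the difference depended on the scale. With 16 units added to each signal before taking logs, the estimate was 0.33 ± 0.09, a 1.26-fold difference (adjusted p = 0.355).

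**Figure D2:**
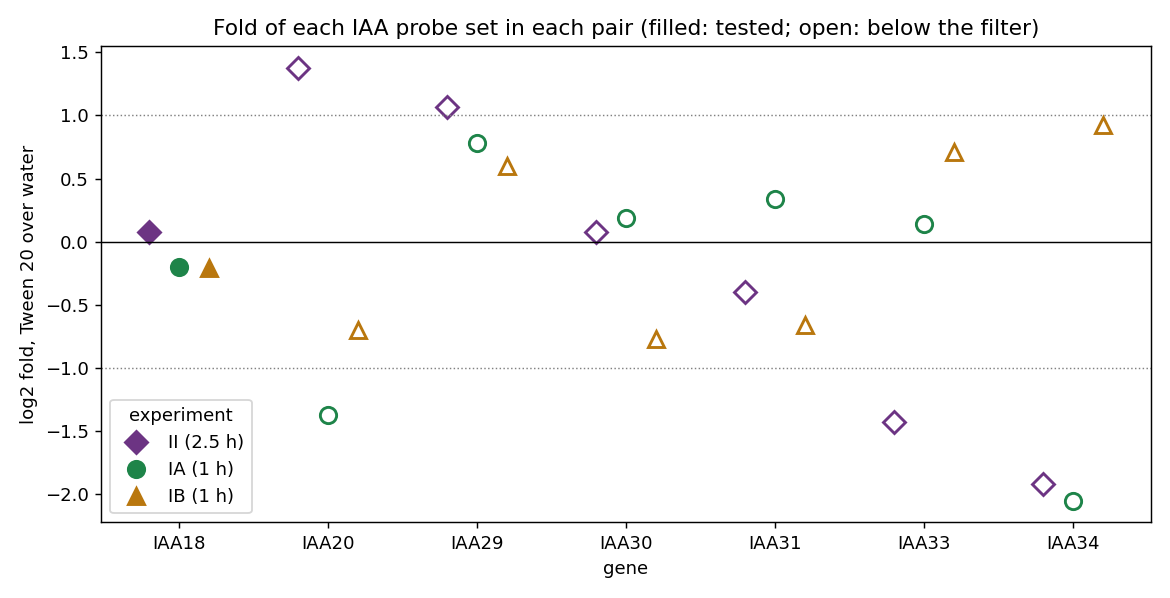
Log2 fold of Tween 20 over water for each of the 7 IAA genes in experiments II, IA and IB, with filled symbols for the tested IAA18 and open symbols for the members below the filter. Dotted lines mark a 2-fold difference. The 3 folds of IAA29 all lie above 0, from 0.60 to 1.06, and those of IAA18 between -0.21 and 0.07.

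The plot of folds by gene also shows how far the pairs of the other 5 members lay apart. These are the genes whose products lack the degron or have a diverged one. IAA20 and IAA30 are known from root vascular tissue, where they limit auxin response. IAA20 had 3.9 units under Tween 20 and 1.5 under water in II, 3.4 under Tween 20 and 8.8 under water in IA, and 0.8 under Tween 20 and 1.3 under water in IB. Its log2 folds were 1.38 in II, -1.37 in IA and -0.70 in IB, so the later pair ran opposite to both earlier ones. IAA30 had 20.2 units under Tween 20 and 19.2 under water in II, 15.9 under Tween 20 and 14 under water in IA, and 6.1 under Tween 20 and 10.4 under water in IB. Its log2 folds were 0.07 in II, 0.18 in IA and -0.77 in IB.

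The dim signals of IAA30 were ordered by experiment. Both arrays of II lay above both arrays of IA, and these above both of IB. How many of all probe sets show such an order was not counted, so it is not read as a trait of IAA30. Over the tested probe sets, which leave out IAA30, arrays of 1 experiment deviated together from their treatment means, with correlations from 0.576 to 0.714. In II the Tween signal of IAA30 reached 84.5% of the 40th percentile. IAA31, whose protein has a diverged degron, had 7.5 units under Tween 20 and 9.9 under water in II, 5.3 under Tween 20 and 4.2 under water in IA, and 2.6 under Tween 20 and 4.1 under water in IB. Its log2 folds were -0.40 in II, 0.34 in IA and -0.66 in IB. Both arrays of II were above all arrays of the 1 h experiments, an order likewise not counted over all probe sets and not read as a trait of IAA31.

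IAA33 acts in root stem cell maintenance. Its signal in II was 5.2 units under Tween 20 and 14 units under water, while IA had 8.8 under Tween 20 and 8 under water, and IB 9.8 under Tween 20 and 6 under water. The folds were -1.43 in II, 0.14 in IA and 0.71 in IB on the log2 scale, with II opposite to both 1 h pairs. IAA34, which acts with its close relative IAA32 in the apical hook of seedlings, had 2.3 units under Tween 20 and 8.7 under water in II, 2.1 under Tween 20 and 8.7 under water in IA, and 3.8 under Tween 20 and 2 under water in IB. Its log2 folds were -1.92 in II, -2.05 in IA and 0.93 in IB. The Tween array was thus lower in II and IA and higher in IB. A fold in II opposite in sign to both 1 h folds was seen in 3 of 7 members, IAA18, IAA20 and IAA33, and in 20.8% of all probe sets.

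Fitted without the filter, 0 of these 5 members passed limma's test over the 3 experiments, as did 0% of all 22746 probe sets, so the count says nothing about the members. The estimates were -0.23 ± 0.64 for IAA20 (SE, adjusted p = 0.926), -0.17 ± 0.30 for IAA30 (adjusted p = 0.869) and -0.24 ± 0.37 for IAA31 (adjusted p = 0.851). Those of IAA33 and IAA34 were -0.19 ± 0.48 (adjusted p = 0.916) and -1.01 ± 0.70 (adjusted p = 0.632). The 95% log2 intervals were -2.79 to 0.76 for IAA34, -1.87 to 1.41 for IAA20, -1.43 to 1.04 for IAA33, -1.19 to 0.71 for IAA31 and -0.92 to 0.58 for IAA30. A 2-fold difference lies within those of the first 4 genes and outside that of IAA30 in this fit. For IAA30 this depended on the experiments used. Its interval held a 2-fold difference without IA (-1.42 to 0.73) and without II (-1.52 to 0.93), but not without IB (-0.63 to 0.89).

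These estimates also rested on single pairs. IAA34 stood at -1.99 ± 0.40 without IB (adjusted p = 0.432), at -0.50 without IA and at -0.56 without II. The estimate of IAA33 was 0.42 without II, -0.36 without IA and -0.65 without IB. For IAA20 it was -1.04 without II, 0.34 without IA and 0.00 without IB. IAA30 was at -0.29 without II, -0.35 without IA and 0.13 without IB, and IAA31 at -0.16, -0.53 and -0.03 in the same order. With 1 pair left out, none of these passed after adjustment. In each of those unfiltered fits 0 of all 22746 probe sets passed, so this says nothing about the members.

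The study counted transcripts that were 2-fold apart within an experiment. With the brighter signal of the pair at or above the 40th percentile, 0 of 7 members were 2-fold apart in II, where 0.725% of all probe sets were 2-fold higher and 0.163% lower. Likewise 0 members were 2-fold apart in both IA and IB, where 0.479% of all probe sets were higher and 0.0835% lower. Without the filter, 4 members were 2-fold apart in II, namely IAA20 and IAA29 higher and IAA33 and IAA34 lower, against 10.5% of all probe sets and 27.1% of those dim on all 6 arrays. In IA these were 2 members, IAA20 and IAA34, both lower, against 28.1% of the dim probe sets. In IB there were 0, against 33.3%. Also without the filter, no member was 2-fold apart in both 1 h pairs. The share of all probe sets for this was not counted without the filter, so nothing is read from it.

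**Figure D3:**
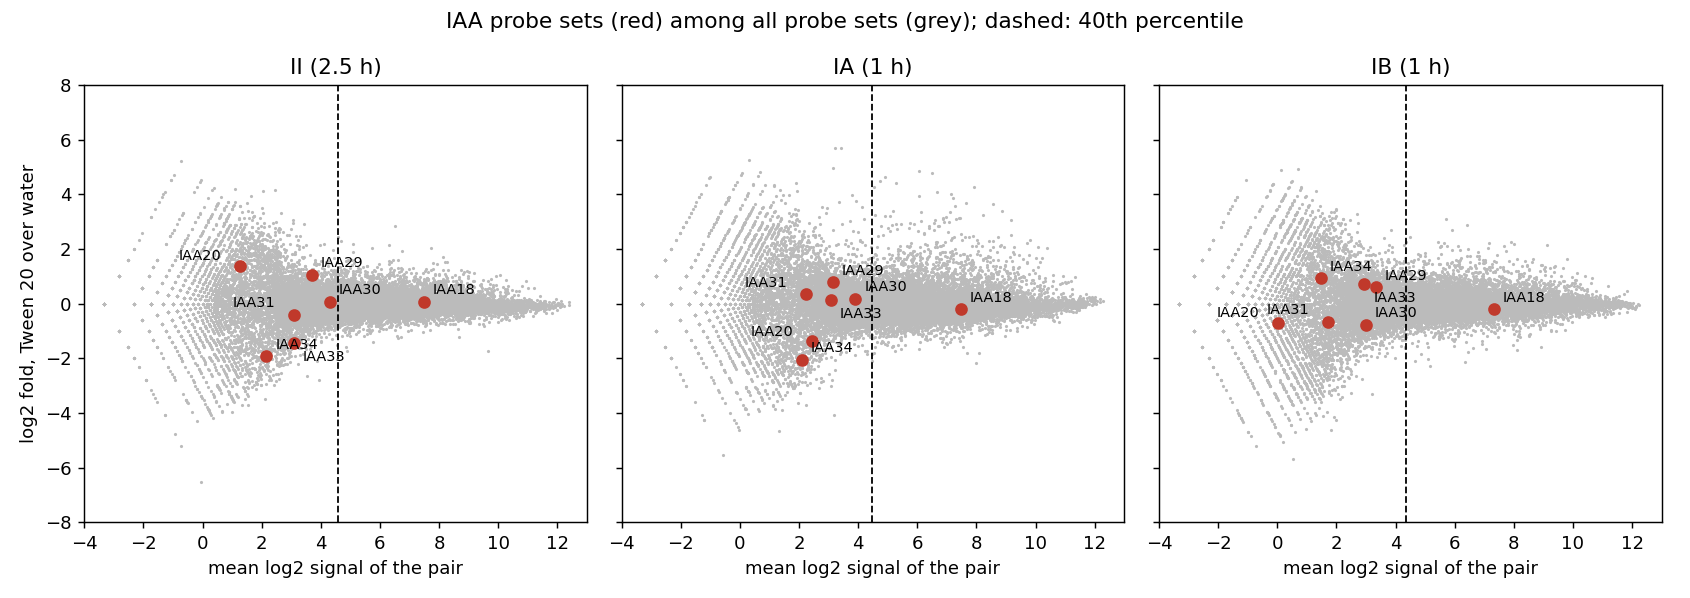
Log2 fold of Tween 20 over water against the mean log2 signal of the pair, for experiments II, IA and IB, with all probe sets in grey, the 7 IAA probe sets in red and the 40th percentile dashed. Folds of dim probe sets spread more widely than those of bright ones. IAA18 lies to the right of the line at folds between -0.21 and 0.07.

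The plot of fold against signal sets these values among all probe sets. The median absolute log2 fold of the probe sets dim on all 6 arrays was 0.49 in II, 0.52 in IA and 0.58 in IB, against 0.17, 0.23 and 0.19 for the tested ones. For the 6 dim members it was 1.22 in II, 0.56 in IA and 0.70 in IB. With its sign, the median fold of all 7 members was 0.07 in II, 0.14 in IA and -0.21 in IB, beside medians of -0.01, -0.04 and -0.04 over all probe sets. For the tested probe sets these medians were -0.02, -0.08 and -0.03, and IAA18, the 1 tested member, stood at 0.07, -0.20 and -0.21.

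Other genes of the auxin pathway were looked up from a list of 71 genes of perception, co-repression, protein degradation, transport, synthesis, inactivation and growth. The annotation named a probe set with 1 gene for 5 of these, 3 of synthesis and 2 of growth, and 1 was bright enough to test. YUC2, a flavin monooxygenase of auxin synthesis, had 61.9 units under Tween 20 and 62.9 under water in II, 63.8 under Tween 20 and 60.4 under water in IA, and 52.6 under Tween 20 and 33.1 under water in IB. Its folds were -0.02 in II, 0.08 in IA and 0.67 in IB on the log2 scale, with a low water signal in IB, and the estimate was 0.24 ± 0.17 (SE, n = 3 pairs, limma adjusted p = 0.529). Without IB the estimate was 0.03 ± 0.17 (adjusted p = 0.955). The synthesis genes YUC4 and YUC6 and the lateral root regulators LBD16 and LBD29 were below the filter, with signals from 0.8 to 22.6 units, and have no call. The result for the list is therefore 0 of 1 tested gene, where 1.12% of all tested probe sets passed.

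As a check of the tissue, the leaf gene RCA, the activase of Rubisco, had signals from 3601 to 4176 units over the 6 arrays. The root hair gene EXPA7 lay between 7.1 and 17.1 units and was dim on all 6. Like IAA29, it was higher under Tween 20 in all 3 pairs, as were 11.9% of the probe sets dim on all 6 arrays. Its log2 folds were 0.31 in II, 0.21 in IA and 0.36 in IB, and any link to the values of IAA29 was not tested. The annotation named a probe set with 1 gene for these 2 of 25 leaf, root and flower markers, so the check rests on 1 leaf and 1 root gene.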

How the data were processed

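The authors deposited a linear signal intensity for every probe set, and the submitters' processing notes name MAS5 as the tool. The sources used here give neither its version nor its settings. The 2% trimmed mean of each array was 100.008 to 100.009 units, so the arrays appear scaled to 1 target, which would hide a shift of most transcripts in 1 direction. The table held 22810 probe sets on 6 arrays, and 64 Affymetrix controls were left out. The median signal of an array was 36.5 to 40.5 units, and precision is limited by how few arrays there are.

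Signals of 0 were set to 0.1, and log2 values were tested in limma 3.58.1 under R 4.3.3 with the experiment as a block, an intensity trend and Benjamini-Hochberg adjustment over all tested probe sets at 0.05. The fits left 2 residual degrees of freedom over 3 experiments and 1 at 1 h and for the difference between the times, where the 1 h pairs give the spread for 2.5 h. The block follows the study, which set Tween 20 against its own water control in every experiment. Pairing comes from the titles and the series' design text. Deviations of arrays from their treatment mean correlated at 0.711 (II), 0.576 (IA) and 0.714 (IB) within an experiment, and at -0.033 or below otherwise. Because the deviations of each treatment cancel out, positive values within experiments force negative ones between them on average. The negative values are therefore no separate evidence for the pairing. Whether plants of IA and IB shared a culture beyond being biological repetitions is not stated. The p-values rest on the spread between experiments of pooled RNA, which limma moves toward that of other probe sets of like signal. In the filtered fit over 3 experiments, those other probe sets weighed as 5.03 degrees of freedom beside the 2 residual ones. There the spread between experiments also holds any difference of the Tween effect between 2.5 h and 1 h.

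Symbols were taken from GEO's annotation of the platform (1 gene for 13513 probe sets), and all 7 members matched RefSeq (TAIR10.1) through the gene identifier under the same symbol. No coordinates are given, since no build is named for the probes. In the pathway list, 1 further gene with a probe set, DAO1, was dropped, as RefSeq did not list that name for its locus code. The members and lists were chosen with earlier results of these data known. Because the rule gave 7 members, all are named, which goes beyond the naming rule for larger families (calls, 2-fold members, the 3 highest and lowest estimates and the 2 highest water signals in each family). Alternatives covered normalization, an added offset of 16 units, the filter, the variance trend, the block and leaving out an experiment.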

Additional observations from a re-analysis of the deposited data

Results flagged for a closer look

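In 3 of the 7 members the Tween effect in the 2.5 h pair had the opposite sign to both 1 h pairs, as in 20.8% of all probe sets. The difference, 2.5 h minus 1 h on the log2 scale, was 0.28 for IAA18, 2.41 for IAA20 and -1.85 for IAA33. limma's test of the difference gave IAA18 an adjusted p of 0.998. Without the filter on dim signals, the test gave an adjusted p of 0.999 for both IAA20 (difference 2.41 ± 0.91, SE) and IAA33 (-1.85 ± 0.70). IAA20 and IAA33 were dim on all 6 arrays, and the later time rests on 1 pair.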

How the results depend on the processing

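Of 109 values recomputed under alternatives, 102 kept their direction and their side of the threshold or moved by less than the spread between pairs. Another 4, all estimates of single genes, changed sign, and 3 counts or medians moved. Among those that moved, the median fold in IA also changed sign. The 3 that moved did so when the filter on dim signals was dropped. Without it the count of members 2-fold apart in II was 4 instead of 0, the count of members above water in all 3 pairs was 1 instead of 0, and the median fold in IA was 0.14 over 7 members instead of -0.20 for IAA18 alone. No member passed limma's test under any alternative run, in any of the 3 comparisons. The filter decided how many members were tested, 1 with it and 7 without. The estimate of IAA18 over the 3 experiments ran from -0.21 to -0.06 when each experiment was left out in turn, with adjusted p between 0.636 and 1 over its 10 alternatives. With no replicate block, that is without pairing by experiment, it was -0.11 ± 0.18 (SE, limma adjusted p = 1), and the count of members that passed was 0 with and without the block. The unfiltered estimate of IAA29 ran from 0.69 to 0.92 when each experiment was left out, and from 0.33 to 0.92 with adjusted p from 0.355 to 1 over its 8 alternatives, which were chosen after seeing the data. The same holds for leaving out each experiment in the unfiltered fit of the other members, where the estimates ran from -1.04 to 0.34 for IAA20, from -0.35 to 0.13 for IAA30, from -0.53 to -0.03 for IAA31, from -0.65 to 0.42 for IAA33 and from -1.99 to -0.50 for IAA34. The sign changed for IAA20 without IA (0.34) and without IB (0.0033), for IAA30 without IB (0.13) and for IAA33 without II (0.42). That of YUC2 ran from 0.03 to 0.37. None of these passed. In the unfiltered fits with an experiment left out, 0 of all 22746 probe sets passed, so that says nothing about the members. Over all tested probe sets the 161 calls over 3 experiments became 0 without IA, 0 without II, 730 without IB, 92 with median centring, 2 without the variance trend, 0 with no replicate block and 0 with no filter. At 1 h, 0 calls became 105 with quantile normalization, 8 with median centring and 10 with the filter at the 60th percentile.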
